A study of Homo sapiens with 12 samples.

Results

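The retinoid genes RDH10, RDH11, DHRS3, CRABP2, FABP5 and PLAAT4 (older symbol RARRES3) were examined in VCaP, an androgen-responsive cell line from a human prostate cancer. They were chosen by symbol, with the normalized intensities of all 4 treatment groups known, and make up 6 of the 11414 genes tested and 9 of the 47322 probes on the arrays. All 6 genes had a probe that passed the filter on dim probes, and 8 of the 9 probes passed. Gene expression had been measured on 12 Illumina BeadChip arrays, 3 per group, from biological triplicates grown in complete medium and treated for 24 h. The groups were 0.1 nM dihydrotestosterone (DHT, an androgen), 10 µM enzalutamide plus 100 nM dexamethasone (called the combination below), 10 µM enzalutamide alone, and the DMSO vehicle. Enzalutamide blocks the androgen receptor and dexamethasone activates the glucocorticoid receptor. All groups are of the same line, with no genetic change named in the labels, and the medium's own hormone content is not given in the sources used here.

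Cells make retinoic acid from vitamin A in 2 oxidations: retinol dehydrogenases turn retinol into retinal, and retinal dehydrogenases turn retinal into retinoic acid. Carrier proteins of the fatty acid binding family hold the acid in the cell and pass it to nuclear receptors, and its level is kept in check by enzymes that reduce retinal back to retinol or break the acid down. RDH10 is the main retinol dehydrogenase of embryonic retinoic acid synthesis, and DHRS3 runs the reverse step from retinal to retinol. RDH11 is a microsomal retinal reductase that was first described as a prostate gene regulated by androgen. CRABP2 carries retinoic acid to the retinoic acid receptors, and FABP5 carries fatty acids and retinoic acid. PLAAT4, a phospholipase and acyltransferase, was found as a gene induced by a synthetic retinoid.

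Promoter windows of 250 bases before the start of transcription were searched on both strands for AGGTCA, the half-site that retinoic acid receptors and other nuclear receptors read, and for AGAACA, a half-site of the androgen and glucocorticoid receptors. The table of promoter windows held 3 of the 6 genes (RDH11, DHRS3, CRABP2) and 8 of the 13 other retinoid genes that passed the test with DHT. AGGTCA was found before 4 of the 21 starts of these 11 genes, and before 12.1% of all 35116 windows in the table. The first and second starts of PLAAT3 share a single site, 29 and 33 bases before them. AGAACA was found before 0 of the 21 starts, and before 12.4% of all windows. The windows of RDH11 and CRABP2 and those of 2 of the 3 starts of DHRS3 held neither motif. The AGGTCA matches lay before starts of DHRS3 and PLAAT3, which were higher with DHT, and of RARA, which was lower. The RARA match lies 230 bases before the first of its starts, and its window is not shown. The 2 windows below are those of DHRS3 and of PLAAT3, a relative of PLAAT4. AGGTCA stands in capitals there as its reverse complement TGACCT on the gene's own strand. It lies 171 bases before the third start of DHRS3 (chr1:12596614-12596863, minus strand) and 29 bases before the first start of PLAAT3 (chr11:63614438-63614687, minus strand), both in RefSeq on GRCh38.p14. A match describes these letters and does not show that a receptor binds there.
DHRS3: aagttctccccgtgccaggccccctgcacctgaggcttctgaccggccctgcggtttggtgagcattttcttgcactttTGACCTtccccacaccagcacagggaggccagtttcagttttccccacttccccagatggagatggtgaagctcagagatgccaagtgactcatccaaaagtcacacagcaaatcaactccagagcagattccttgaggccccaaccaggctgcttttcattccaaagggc
PLAAT3: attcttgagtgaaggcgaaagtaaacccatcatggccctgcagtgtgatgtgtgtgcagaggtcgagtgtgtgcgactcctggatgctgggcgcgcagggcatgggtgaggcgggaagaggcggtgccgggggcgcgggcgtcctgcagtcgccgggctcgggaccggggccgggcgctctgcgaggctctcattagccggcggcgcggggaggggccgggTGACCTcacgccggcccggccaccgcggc

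Vehicle replicate 3 was the dimmest array, with a mean intensity of 199, against 271 to 344 for the other 11. Each array detected 33.5% to 38.8% of its probes. Array correlations were 0.988 to 0.994 within groups and 0.972 to 0.992 between them. Of 6 luminal prostate and VCaP markers with a probe, 5 were detected on all 12 arrays, among them KLK2, TMPRSS2, ERG and KRT8. KLK3 was detected on 9. The basal keratins KRT5 and KRT14, the stromal gene DCN and the T cell gene CD3E were detected on 0 arrays, while VIM and CD68 were detected on all 12. Among the other basal, stromal and immune markers, COL1A1 and PTPRC were detected on 1 array each and COL1A2 on 2. NGFR was detected on 3 and CD79A on 4. Summed linear levels of the luminal markers were 10408 to 11169 with DHT, 6487 to 7148 with the combination, 4411 to 4616 with enzalutamide and 5837 to 6538 with vehicle, and KLK2 and TMPRSS2 among them are androgen-regulated. The summed levels of the basal, stromal and immune lists overlapped between DHT and vehicle. The arrays also fell into 2 sets by the ranks of probes detected nowhere, the first holding DHT and vehicle replicates 1 and 2 with replicate 1 of the other groups; the origin of this division is not given in the sources used here, and values within each set are given below. RefSeq places RDH10 and FABP5 on chromosome 8, RDH11 on chromosome 14, DHRS3 and CRABP2 on chromosome 1, and PLAAT4 on chromosome 11.

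With DHT, RDH10, DHRS3 and PLAAT4 were higher than with vehicle, FABP5 and CRABP2 were lower, and RDH11 overlapped. RDH10 was 3.98-fold higher and FABP5 3.67-fold lower. Across all genes 21.7% passed the test in this comparison, 11% higher and 10.7% lower (limma, Benjamini-Hochberg adjustment over the 11414 genes, threshold 0.05), and the groups of 37.2% did not overlap. Of the 6 genes 5 passed, 3 higher and 2 lower, and the same 5 did not overlap, but they were put together with these values known, so the count describes the choice and no p is given for them. In RNA from whole cultures, fewer expressing cells and less RNA per cell cannot be told apart.

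**Figure D1:**
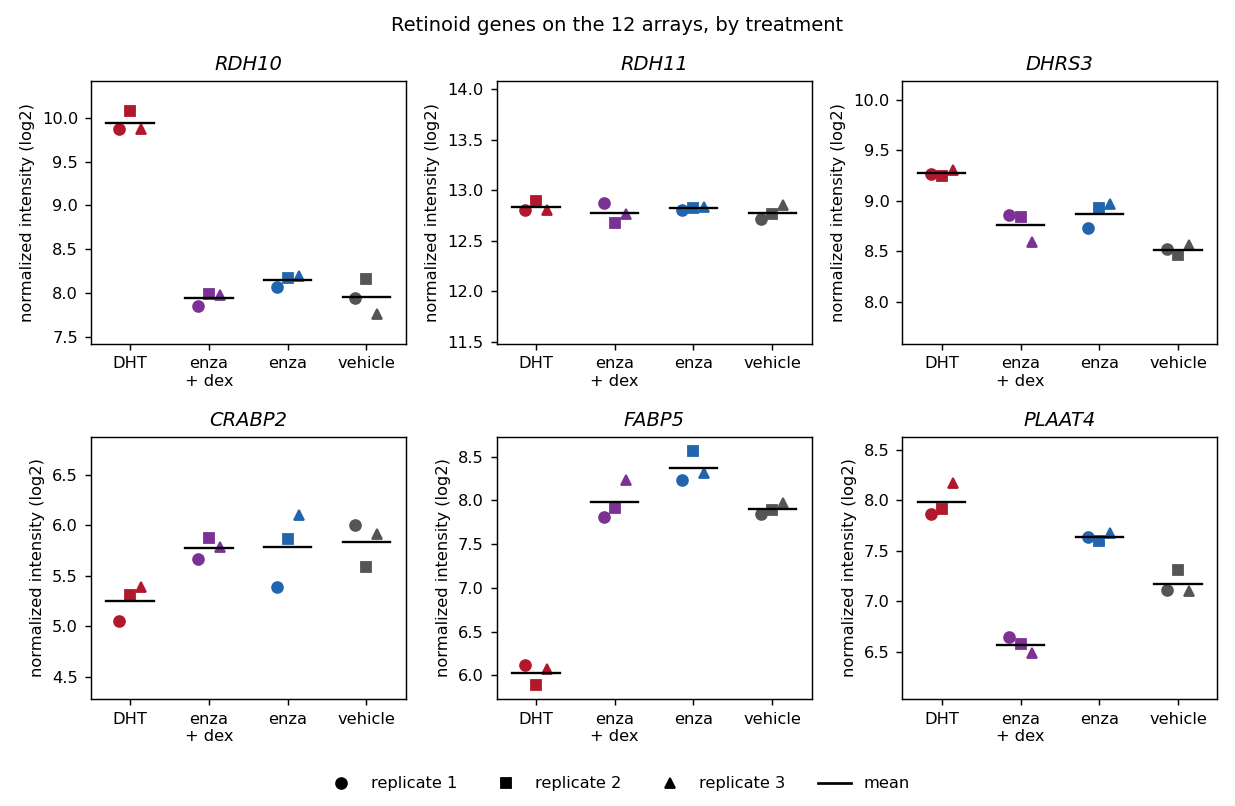
Normalized log2 intensity (vertical axis, arbitrary fluorescence units) of the 6 genes on each of the 12 arrays, by group from DHT to vehicle, with 1 symbol per replicate and a bar at the group mean (enza, enzalutamide; dex, dexamethasone). RDH10 with DHT stands far above the other groups, RDH11 is level, FABP5 is lowest with DHT, and the 4 groups of PLAAT4 do not overlap.

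RDH10 was read by 1 probe (ILMN_1714335), detected on all 12 arrays. Its unprocessed intensities were 1165, 1222 and 973 with DHT, 335, 373 and 366 with the combination, 372, 417 and 327 with enzalutamide, and 365, 357 and 189 with vehicle. Its normalized log2 intensities were 9.88, 10.08 and 9.87 with DHT, 7.86, 7.98 and 7.97 with the combination, 8.07, 8.17 and 8.20 with enzalutamide, and 7.94, 8.16 and 7.76 with vehicle. All 3 DHT arrays lay above all 9 others, and the lowest single value was that of vehicle replicate 3, the dimmest array. The log2 difference between DHT and vehicle was 1.99 ± 0.11 (SE of the linear model, n = 3 arrays per group). It was 1.93 within the first array set and 2.11 within the second. Below DHT, the order of means was enzalutamide (8.15), vehicle (7.95) and combination (7.94), and neighbours in that order overlapped. The combination lay below enzalutamide on every array, by a log2 difference of -0.21 ± 0.11 that did not pass the threshold.

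RDH11 was read by 2 probes. Normalized log2 intensities of the probe that stands for the gene (ILMN_1768719) were 12.80, 12.89 and 12.81 with DHT, 12.87, 12.67 and 12.77 with the combination, 12.81, 12.82 and 12.84 with enzalutamide, and 12.72, 12.76 and 12.85 with vehicle. The groups overlapped in all 4 comparisons, and the group means spanned 0.064 log2 units. The DHT difference was 0.06 ± 0.08 by this probe, and RDH11 was the 1 of the 6 genes with no separated groups by the probe that stands for the gene. The other probe (ILMN_2128741) read 10.42, 10.26 and 10.15 with DHT, 10.35, 10.196 and 10.21 with the combination, 10.43, 10.38 and 10.46 with enzalutamide, and 10.42, 10.35 and 10.27 with vehicle. By this probe the combination lay below enzalutamide on every array, by a log2 difference of -0.17 ± 0.09, and the other 3 comparisons overlapped. Its DHT difference was -0.07 ± 0.09. Levels of different probes are not comparable, and none are ranked here.

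DHRS3 was highest with DHT and lowest with vehicle. Its normalized log2 intensities were 9.26, 9.24 and 9.31 with DHT, 8.86, 8.84 and 8.59 with the combination, 8.73, 8.92 and 8.96 with enzalutamide, and 8.52, 8.46 and 8.56 with vehicle. Both enzalutamide groups lay between DHT and vehicle and overlapped each other, without overlapping either end. The DHT difference was 0.76 ± 0.10, or 1.69-fold. It was 0.76 within the first array set and 0.75 within the second, where it did not pass the threshold with 1 DHT and 1 vehicle array. Enzalutamide alone stood 0.36 ± 0.10 above vehicle and the combination 0.25 ± 0.10, and neither passed the threshold.

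CRABP2 was dim, with unprocessed intensities of 108 to 167, and was detected on all 12 arrays. Its normalized log2 intensities were 5.05, 5.31 and 5.39 with DHT, 5.66, 5.88 and 5.78 with the combination, 5.39, 5.86 and 6.10 with enzalutamide, and 6.003, 5.58 and 5.91 with vehicle. The DHT arrays lay below all others, with the highest DHT array at 5.385 and the lowest enzalutamide array at 5.389. The other 3 groups overlapped, with means between 5.77 and 5.83. The DHT difference was -0.58 ± 0.17, and -0.61 and -0.53 within the 2 array sets. The difference no longer passed the threshold without DHT replicate 1 (-0.48), DHT replicate 2 (-0.61), vehicle replicate 1 (-0.50) or vehicle replicate 3 (-0.56), within either array set, or with arrays scaled to a common median (-0.47).

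FABP5 was lowest with DHT and highest with enzalutamide. Normalized log2 intensities of its brightest probe (ILMN_2146761, detected on all 12 arrays) were 6.12, 5.89 and 6.07 with DHT, 7.81, 7.92 and 8.23 with the combination, 8.23, 8.57 and 8.32 with enzalutamide, and 7.85, 7.89 and 7.97 with vehicle. Every DHT array lay below every other array. The combination and vehicle overlapped at means of 7.98 and 7.90, and enzalutamide stood above both. The gap to the combination was narrow, with its highest array at 8.229 and the lowest enzalutamide array at 8.232. The DHT difference was -1.88 ± 0.12, and -1.86 and -1.90 within the 2 array sets. Enzalutamide stood 0.47 ± 0.12 above vehicle and the combination 0.39 below enzalutamide (log2 difference -0.39 ± 0.12), and neither passed the threshold.

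FABP5 had a pair of other probes. The second (ILMN_1696302) had unprocessed intensities of 126, 112 and 109 with DHT, where it was not detected on any array. It read 203, 165 and 191 with the combination, 246, 220 and 183 with enzalutamide, and 212, 182 and 125 with vehicle, and was detected on all 9 of these arrays. Its normalized values also put DHT lowest on every array and enzalutamide above vehicle without overlap. The third probe (ILMN_2146766) read 77 to 103 and was detected on 0 arrays, so it gave no level for any group. FABP5 belongs to a family with near-identical processed copies in the genome, and cross-hybridization of its probes was not tested.

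**Figure D2:**
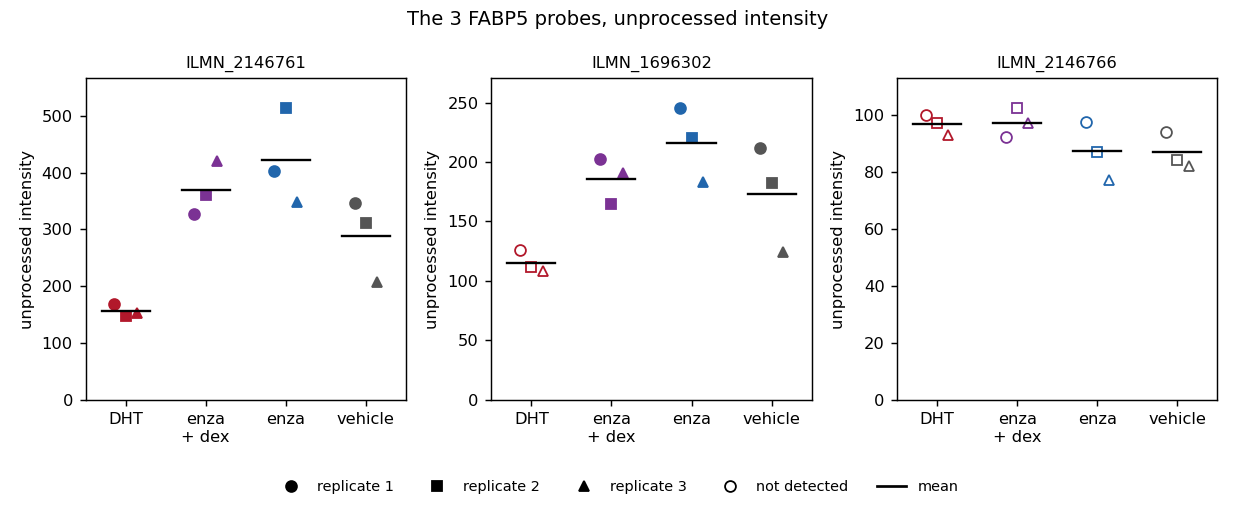
Unprocessed intensity (vertical axis, arbitrary fluorescence units, from 0) of the 3 FABP5 probes on each array, by group from DHT to vehicle, with open symbols where the probe was not detected and a bar at the group mean. The first probe was detected on 12 arrays, the second on 9 and on no DHT array, and the third on 0.

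PLAAT4 was the gene whose 4 groups all separated. Its normalized log2 intensities were 7.86, 7.91 and 8.17 with DHT, 6.65, 6.57 and 6.49 with the combination, 7.64, 7.59 and 7.68 with enzalutamide, and 7.11, 7.30 and 7.10 with vehicle. DHT was highest, then enzalutamide, then vehicle, and the combination was lowest, with no overlap between neighbours. The DHT difference was 0.81 ± 0.10, or 1.75-fold, and stood at 0.68 and 1.08 within the 2 array sets. Enzalutamide stood 0.46 ± 0.10 above vehicle (0.43 and 0.54 within the sets). Adding dexamethasone to enzalutamide went with a log2 difference of -1.07 ± 0.10 (-0.99 and -1.11 within the sets), a 2.10-fold lower level. That difference ranked 27 in size among the 11414 genes, a description of a gene chosen with these values known.

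Enzalutamide against vehicle and the combination against vehicle share the vehicle arrays with the DHT comparison. The 6 genes were put together with the values of all 4 groups known, so their counts in the comparisons below also describe the choice. Between enzalutamide and vehicle 1.83% of all genes passed the test, 0.832% higher and 0.999% lower, and PLAAT4 was the 1 of the 6 genes that did. DHRS3 and FABP5 also lay above vehicle without overlap, a pattern seen for 20.1% of all genes in either direction. The PLAAT4 difference did not pass without enzalutamide replicate 1 (0.47), 2 (0.49) or 3 (0.44), without vehicle replicate 1 (0.44) or 3 (0.43), with the replicate number as a block (0.46), or within either array set.

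Between the combination and enzalutamide 3.5% of all genes passed, 1.79% higher and 1.72% lower, and of the 6 genes PLAAT4 alone, on the lower side. RDH10 and FABP5 were lower without overlap but did not pass, against 23.5% of all genes whose groups did not overlap. Between the combination and vehicle 1.1% of all genes passed, 0.666% higher and 0.429% lower, and PLAAT4 was again the 1 of the 6, at -0.60 ± 0.10. That difference did not pass without combination replicate 2 (-0.60) or 3 (-0.56) or without vehicle replicate 1 (-0.63) or 2 (-0.54). DHRS3 lay above vehicle and PLAAT4 below it without overlap, against 17.4% of all genes, and the other 4 overlapped.

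**Figure D3:**
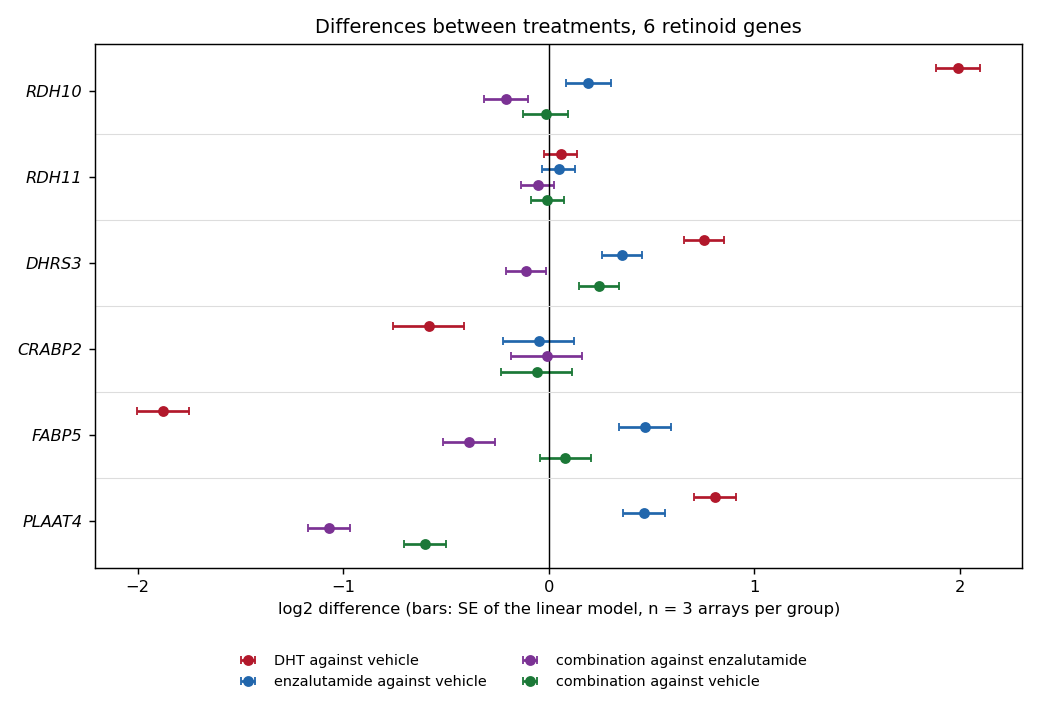
Log2 difference (horizontal axis) of the 6 genes in 4 comparisons, as points with the SE of the linear model (n = 3 arrays per group), each comparison in 1 colour. DHT lies far right for RDH10 (1.99) and far left for FABP5 (-1.88), all RDH11 points lie near 0, and the combination against enzalutamide lies far left only for PLAAT4 (-1.07).

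The change with dexamethasone (combination minus enzalutamide) and the change with DHT (DHT minus vehicle) share no array and were set against each other in the same fit. Across all genes 6.9% passed this test of the difference, 3.61% with a positive and 3.29% with a negative value. Of the 6 genes 4 did, 1 positive and 3 negative. They were put together with these values known, so the count describes the choice. PLAAT4 differed by -1.88 ± 0.14, since it lay higher with DHT than with vehicle and lower with added dexamethasone than with enzalutamide. RDH10 differed by -2.20 ± 0.15, DHRS3 by -0.87 ± 0.14 and FABP5 by 1.49 ± 0.18. For RDH10 and DHRS3 the dexamethasone changes were -0.21 and -0.11, and the DHT changes of 1.99 and 0.76 made up most of the difference. FABP5 was lower in both, by a dexamethasone change of -0.39 and a DHT change of -1.88. Its positive value therefore marks a smaller fall with dexamethasone and not a rise. None of these 3 dexamethasone changes passed the threshold. CRABP2 differed by 0.57 ± 0.24 and RDH11 by -0.11 ± 0.11, and neither passed.

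The other genes of retinoid handling were taken from a list of 73 that leaves out the 6. Of these 69 had a probe, 34 were tested and 35 were too dim, 27 of them detected on 0 arrays. The enzymes that break down retinoic acid (CYP26A1, CYP26B1, CYP26C1) and the 8 other fatty acid binding proteins were among those too dim to test. The receptors RARB, RARG and RXRG and the retinol uptake gene STRA6 were also too dim. With DHT 6 of the 34 rose and 7 fell, or 38.2% against 21.7% of all genes, and the median log2 change was -0.017 against 0.009 over all genes. SDR16C5, 1 of the 6 that rose, was detected with DHT alone and entered the test through those arrays. Without it 5 of 33 rose and 7 fell, or 36.4%. At an unadjusted p under 0.05 in limma 6 of the 34 stood higher and 8 lower, or 41.2% against 33.6% of all genes. The list was drawn up with earlier results of these data known, so its shares are a description. With arrays scaled to a common median, which put the median of all genes at 0.155, 5 of the 34 passed (ALDH1A1, ALDH1A3, TGM2, IGFBP3 and TTR), or 14.7% against 10.2% of all genes under that scaling.

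Of the 4 enzymes of retinoic acid synthesis, 2 rose with DHT and 2 did not pass, or 50% against 21.7% of all genes that passed. ALDH1A1, a retinal dehydrogenase, had normalized log2 intensities of 11.66, 11.83 and 11.53 with DHT, 9.89, 9.69 and 9.63 with the combination, 9.62, 9.81 and 9.51 with enzalutamide, and 10.02, 10.01 and 9.94 with vehicle. The DHT arrays stood above all others, and both enzalutamide groups stood below vehicle. ALDH1A1 rose by 1.69 ± 0.11 with DHT, or 3.22-fold (limma adjusted p = 1.34e-06). ALDH1A3, a second retinal dehydrogenase, read 11.00, 11.03 and 11.07 with DHT, 10.19, 10.29 and 10.24 with the combination, 10.02, 10.07 and 10.07 with enzalutamide, and 10.38, 10.27 and 10.41 with vehicle. It rose by 0.68 ± 0.08 with DHT (limma adjusted p = 7.75e-05). Log2 changes of the other enzymes were 0.32 ± 0.22 for ALDH1A2 and 0.01 ± 0.19 for ALDH8A1.

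Among the 7 tested retinol and retinal oxidoreductases 1 stood higher and 1 fell with DHT, or 28.6% against 21.7% of all genes. That share counts the gene that stood higher, which entered the test only through the DHT arrays, so no excess is read from it. This gene was SDR16C5, a retinol dehydrogenase, detected on the 3 DHT arrays and on 0 others. Its normalized log2 intensities were 5.44, 5.02 and 4.98 with DHT, against 4.38 to 4.64 with vehicle, at least 1.09-fold higher with DHT. It met the filter only through the group where it was high, so no p is given for it, and it was too dim to be tested without any 1 DHT array or under the stricter filter. DHRS4, an NADP-dependent retinal reductase, fell by 0.37 on the log2 scale (SE 0.10, limma adjusted p = 0.0156). RDH13 changed by -0.27 ± 0.18, which did not pass, RDH5 and RDH14 each differed by 0.08, and RDH12 was not detected on a DHT array.

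Of 9 tested genes of uptake, binding and storage, 3 fell with DHT and 0 rose in limma, and the median change was -0.28. The same 3 of 9, or 33.3%, stood at an unadjusted p under 0.05 in limma, against 33.6% of all genes. TTR, which carries the retinol binding protein and thyroid hormone in blood, had normalized log2 intensities of 5.30, 4.98 and 5.33 with DHT, 6.38, 6.26 and 6.81 with the combination, 6.70, 6.71 and 6.56 with enzalutamide, and 6.34, 6.28 and 6.17 with vehicle. Its DHT arrays lay below all others, by a log2 change of -1.06 ± 0.14 against vehicle (limma adjusted p = 0.000268). DGAT1, which can esterify retinol, fell by 0.48 on the log2 scale (SE 0.13, limma adjusted p = 0.0183). SCARB1, a lipoprotein receptor that takes up carotenoids, fell by 0.37 (SE 0.08, limma adjusted p = 0.00834). RBP5 (-0.33 ± 0.24) and PNPLA4 (-0.28 ± 0.17) did not pass.

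Among the 4 tested receptors RARA, a retinoic acid receptor, fell by 0.48 on the log2 scale with DHT (SE 0.12, limma adjusted p = 0.0112). It was the 1 of the 4 that passed, or 25% against 21.7% of all genes. Its levels were 6.03, 6.22 and 6.19 with DHT, against 6.73, 6.73 and 6.42 with vehicle. The retinoid X receptor RXRB (-0.13 ± 0.09) and PPARD (0.27 ± 0.15), the nuclear receptor to which FABP5 delivers ligands, did not pass. In the PLAAT family PLAAT3, a phospholipase, rose by 0.39 ± 0.09 with DHT (limma adjusted p = 0.00836), and PLAAT2 was not detected on a DHT array.

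Of 8 tested genes known to be induced by retinoic acid in some cells, 2 rose and 2 fell with DHT, or 50% against 21.7% of all genes. TGM2, a transglutaminase, had normalized log2 intensities of 7.60, 7.60 and 7.67 with DHT, 6.73, 6.82 and 6.53 with the combination, 5.83, 6.07 and 5.65 with enzalutamide, and 5.77, 5.79 and 6.37 with vehicle. DHT lay above the combination, and the combination above both enzalutamide and vehicle, without overlap. TGM2 rose by 1.65 ± 0.16 with DHT (limma adjusted p = 2.57e-05) and by 0.84 ± 0.16 with added dexamethasone (limma adjusted p = 0.0126). IGFBP3, a carrier of insulin-like growth factors, read 10.74, 10.66 and 10.66 with DHT, 12.19, 12.07 and 12.15 with the combination, 12.20, 12.12 and 12.21 with enzalutamide, and 11.75, 11.72 and 11.82 with vehicle. Its log2 change was -1.08 ± 0.08 with DHT (limma adjusted p = 2.57e-06) and 0.41 ± 0.08 with enzalutamide (limma adjusted p = 0.0215). NRIP1, a nuclear receptor corepressor, rose by 0.27 ± 0.07 with DHT (limma adjusted p = 0.0223), and RAI14, an actin-associated protein, fell by 0.33 on the log2 scale (SE 0.10, limma adjusted p = 0.0267). MEIS1 (0.35 ± 0.21) and BHLHE40 (-0.26 ± 0.10) did not pass.

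**Figure D4:**
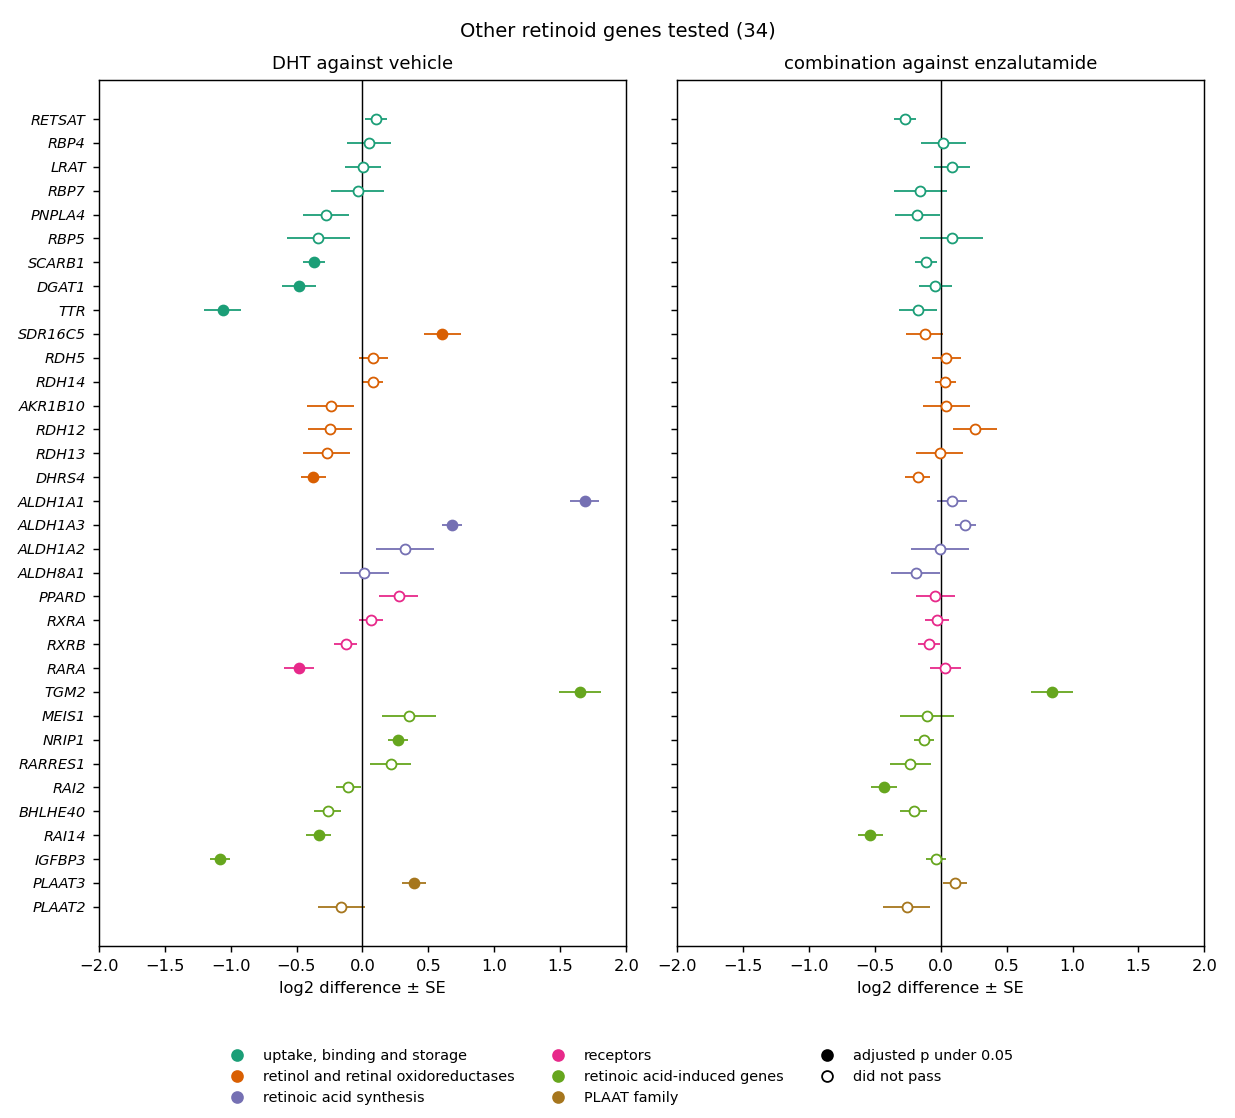
Log2 difference ± SE (horizontal axes, n = 3 arrays per group) of the 34 other retinoid genes tested, by role, for DHT against vehicle at left and the combination against enzalutamide at right, filled where the limma adjusted p passed the threshold. With DHT 13 points are filled, led by ALDH1A1 (1.69) and TGM2 (1.65), and at right 3 are filled; the fitted value of SDR16C5, detected only with DHT, is not a bound.

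Of the 13 DHT calls, 4 missed the threshold without single arrays, and SDR16C5 dropped out of the test without any 1 of the 3 DHT arrays. DGAT1 had a limma adjusted p of 0.0685 without DHT replicate 2 and 0.0665 without vehicle replicate 1 (0.00959 to 0.366 over all 19 alternatives). DHRS4 had 0.0559 without DHT replicate 3 and 0.0521 without vehicle replicate 1 (0.00175 to 0.762 over all). NRIP1 had 0.0577 and 0.0704 without DHT replicates 2 and 3, and 0.0516 and 0.0546 without vehicle replicates 2 and 3 (0.00903 to 0.311 over all). RAI14 had 0.0697 and 0.0795 without DHT replicates 1 and 3, and 0.0797 and 0.0678 without vehicle replicates 1 and 2 (0.00734 to 0.834 over all). Within the first array set, with 2 arrays per group, ALDH1A1, ALDH1A3, TGM2, IGFBP3, TTR and RARA passed. Within the second array set, with 1 DHT and 1 vehicle array, the log2 differences were 1.59 for ALDH1A1 and -1.17 for IGFBP3; no spread can be had for either group there, so these are given without a test.

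With enzalutamide against vehicle 1 of the 34 other genes rose (IGFBP3) and 0 fell, or 2.94% against 1.83% of all genes, with a median of 0.073 against 0.0062. At an unadjusted p under 0.05 in limma 4 stood higher and 3 lower, or 20.6% against 14.5% of all genes. Of those that did not pass, ALDH1A1 (-0.34 ± 0.11), ALDH1A3 (-0.30 ± 0.08) and PLAAT3 (-0.32 ± 0.09) stood below vehicle, TTR (0.39 ± 0.14) above it. The IGFBP3 call gave adjusted p-values of 0.0571 to 0.0853 without any 1 enzalutamide array, 0.0662 without vehicle replicate 1 and 0.0674 without vehicle replicate 2 (0.00024 to 0.485 over all 19 alternatives).

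Adding dexamethasone to enzalutamide moved 3 of the 34, all from the genes induced by retinoic acid, or 8.82% against 3.5% of all genes. The median was -0.04, against -0.000922 over all genes. At an unadjusted p under 0.05 in limma 2 of the 34 stood higher and 3 lower, or 14.7% against 14.8% of all genes. Beside the rise of TGM2, RAI14 fell by 0.53 on the log2 scale (SE 0.10, limma adjusted p = 0.00959) and RAI2, a nuclear protein, fell by 0.43 (SE 0.10, limma adjusted p = 0.0338). RAI14 read 7.79, 7.96 and 7.81 with the combination, against 8.55, 8.34 and 8.27 with enzalutamide. TGM2 had a limma adjusted p of 0.0608 without combination replicate 2 and 0.0596 without enzalutamide replicate 3 (0.000868 to 0.329 over all 19 alternatives). RAI2 had 0.0973, 0.0600 and 0.130 without combination replicates 1, 2 and 3, and 0.103 and 0.132 without enzalutamide replicates 2 and 3 (0.0149 to 1 over all). No synthesis enzyme passed, and 1 of 4 stood higher and 0 lower at an unadjusted p under 0.05 in limma, as did 14.8% of all genes in either direction. The log2 differences were 0.19 ± 0.08 for ALDH1A3 and 0.09 ± 0.11 for ALDH1A1.

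Against vehicle, the combination raised 1 of the 34, IGFBP3 by 0.37 ± 0.08 (limma adjusted p = 0.0462), and lowered 0, or 2.94% against 1.1% of all genes; at an unadjusted p under 0.05 in limma 2 stood higher and 5 lower, or 20.6% against 11.7% of all genes. That call was lost without any 1 of the 6 arrays compared, at adjusted p-values of 0.0855 to 0.153, and with the replicate number as a block (0.0514), against 0.000992 to 0.693 over all alternatives. TGM2 stood 0.72 ± 0.16 above vehicle and did not pass (limma adjusted p = 0.0604). In the test of the dexamethasone change against the DHT change, 6 of the 34 passed, or 17.6% against 6.9% of all genes, and without SDR16C5 5 of 33, or 15.2%. ALDH1A1 differed by -1.60 ± 0.16 (limma adjusted p = 0.000127), ALDH1A3 by -0.49 ± 0.11 (0.0177), IGFBP3 by 1.04 ± 0.11 (0.000177) and TTR by 0.89 ± 0.20 (0.0206). NRIP1 differed by -0.40 ± 0.10 (0.0431), a call lost in 11 of the 12 fits without 1 array and with the replicate block (0.0585). SDR16C5 differed by -0.73 ± 0.20, with no p given for the reason above; it missed the threshold in 8 of the 9 fits without 1 array that held it and was too dim in the other 3. TTR had 0.0501 without DHT replicate 2. TGM2, which rose with DHT and with added dexamethasone, differed by -0.80 ± 0.23 and did not pass (0.0542).

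The genes most like each of the 6 over the 12 arrays were named by Pearson's r of normalized log2 intensity. The arrays are 4 groups of 3, so the 12 points are not independent, and r is given as a description. RDH10 was followed by NBL1 (r = 0.990), IL20RA (0.983) and CLDN8 (0.979), all higher with DHT than with vehicle, by log2 differences of 1.96, 1.63 and 1.21. FABP5 was followed by ANKRD16 (0.991), REG4 (0.989) and EPB41L4A-AS1 (0.984), each lowest with DHT and highest with enzalutamide. REG4, a secreted lectin, averaged 7.16 with DHT, 10.54 with the combination, 11.04 with enzalutamide and 10.47 with vehicle. PLAAT4 was followed by RERE (0.955), DHDH (0.944) and PRKCA (0.916), whose group means stood in the same order as those of PLAAT4. For DHRS3 they were TAX1BP3 (0.955), RPS6KA1 (0.941) and LOC101928126 (0.937), and for CRABP2 MRI1 (0.946), PSMB10 (0.940) and RCC2 (0.931). For RDH11 they were PDCD7 (0.836), TOP2B (0.816) and KIF14 (0.804). Under 15 alternatives (3 normalizations and leaving out each array) r stayed at 0.956 or more for the genes named with RDH10 and FABP5. With arrays scaled to a common median r with CRABP2 was 0.502 for MRI1, 0.840 for PSMB10 and 0.741 for RCC2, so MRI1 was no longer the first of these 3. The lowest r was 0.652 for RDH11 with KIF14, 0.832 for PLAAT4 with RERE and 0.862 for DHRS3 with LOC101928126. Whether genes not named here came first under the alternatives was not tested.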

How the data were processed

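Biotin-labelled cRNA of 12 cultures was measured on Illumina BeadChips, and the submitters' processing notes name GenomeStudio. The deposited intensity of a probe is the mean over its beads, not normalized between arrays, per the file headers. The steps of the deposited detection p-value fit a rank among 770 negative controls. Deposited bead counts and the bead standard error of each signal were used for description alone. Values in the authors' processed table, also deposited as intensity, look background-subtracted and quantile-normalized; they were an alternative, with 42.5 added before the log2. The genome build is not given in the sources used here, so gene coordinates are not printed, and promoter windows come from RefSeq.

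Intensities were normalized with neqc of limma 3.58.1 in R 4.3.3 (offset 16, quantile), and 20265 of 47322 probes passed the filter, a detection p under 0.05 on 3 or more of the 12 arrays. The passing probe of highest mean stands for its gene. In the platform annotation 30112 probes had 1 symbol, 8 had several and 17202 were not listed. A mean per group was fitted to all 12 arrays with lmFit and eBayes (degrees of freedom: 8 residual, 3.71 prior), two-sided, with Benjamini-Hochberg adjustment over 11414 genes at 0.05. An exact test of 1 gene with 3 arrays against 3 cannot go below 0.1. The number of arrays limits the precision. For a gene not detected in 1 group, the fold is a bound: the brighter group's mean over that of the dim arrays, where each dim value is raised to its array's lowest detected signal if below it. The procedure was tested on simulated data.

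The 6 genes, the list of other retinoid genes and the markers were chosen with earlier results of these data known. The rule named all 6 genes, every list gene past the threshold, up to 2 others per role, and for each of the 6 the 3 genes of highest Pearson's r. Replicate numbers come from the titles, with nothing said of what they mark. Between DHT and vehicle, deviations from group means correlated at 0.155, 0.148 and 0.194 for equal numbers. These were taken as pairs in an alternative fit with the replicate number as a block. The SEs and p-values printed come from the fit without it, unless the block is named. Fitted with that block, the DHT comparison had the same calls among the 6 and the list. The alternatives were 2 filters on dim probes, 2 background corrections, median scaling, the authors' processed table, the mean of a gene's probes, an intensity trend, only the groups compared, the replicate block, the array sets as a block or apart, and leaving out each array.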

Additional observations from a re-analysis of the deposited data

How the results depend on the processing

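No difference of the 6 genes that passed the threshold changed sign under any alternative run, and 530 of 600 repeated differences moved by less than the spread between arrays. Over the 19 alternatives with DHT, RDH10 spanned 1.67 to 2.22, FABP5 -1.92 to -1.09 and PLAAT4 0.55 to 1.08. These genes passed wherever at least 2 DHT and 2 vehicle arrays were fitted. The second array set, with 1 of each, gives no spread for either group and is not counted as a pass. CRABP2 (-0.70 to -0.21) passed in 12, PLAAT4 in 8 for enzalutamide against vehicle and in 11 for the combination against vehicle, and DHRS3 with DHT in 18; the cause was not tested. Intensities near background limit CRABP2 and the genes of the list detected on few arrays.

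Counts below run over all genes, then the 6, then the 34 others, as far as they moved by over 1.5 times from 2476, 5 and 13 (DHT), 209, 1 and 1 (enzalutamide), 400, 1 and 3 (the combination against enzalutamide), 125, 1 and 1 (the combination against vehicle), and 788, 4 and 6 (dexamethasone change against DHT change). Without a filter, 2 others passed with enzalutamide. A stricter filter gave 354, 2 and 2 with enzalutamide, and 208 genes and 2 others for the combination against vehicle. Without background correction the counts were 410, 3 and 4 with enzalutamide, 614 and 2 (of the 6) for the combination against enzalutamide, 253 and 3 (others) against vehicle, and 1210 genes for the 2 changes. An offset of 50 gave 332, 3 and 3 with enzalutamide, and 209 genes and 2 others for the combination against vehicle. An intensity trend gave 429, 3 and 4 with enzalutamide, 627 and 2 (of the 6) for the combination against enzalutamide, 260 and 3 (others) against vehicle, and 1228 for the 2 changes. The authors' processed table gave 2 others for the combination against vehicle. The mean of all probes gave 3 others with enzalutamide and 2 of the 6 for the combination against enzalutamide.

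Median scaling gave 1169 genes with DHT (950 higher and 219 lower, against 1259 and 1217) and 5 others. With enzalutamide it gave 48 genes (34 and 14, against 95 and 114), 0 of the 6 and 0 others. For the combination against enzalutamide it gave 108 genes (73 and 35, against 204 and 196) and 1 other, and against vehicle 84 genes (80 and 4, against 76 and 49) and 0 of the 6. For the 2 changes it gave 175 genes (65 and 110, against 412 and 376) and 1 other. It put the median of all genes at 0.155 (DHT), 0.134 (enzalutamide), 0.0721 and 0.209 (the combination against enzalutamide and vehicle).

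Fits of only the groups compared, with fewer arrays, gave 36 genes, 0 of the 6 and 0 others with enzalutamide, 222 genes and 1 other for the combination against enzalutamide, and 10, 0 and 0 against vehicle. Within the first array set the counts were 767 genes and 6 others with DHT, 0 throughout for the other comparisons of groups, and 1, 0 and 0 for the 2 changes. Within the second they were 228, 3 and 2 with DHT, 0 throughout with enzalutamide and for the combination against vehicle, 27 genes and 0 others for the combination against enzalutamide, and 15, 2 and 0 for the 2 changes. A group with 1 array in a set (DHT and vehicle in the second, the other groups in the first) is assumed to vary like the groups with 2. With the sets as a block 0 of the 6 passed with enzalutamide and 0 others for the combination against vehicle.

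Leaving out 1 array gave 1874 to 2116 genes, 4 to 5 of the 6 and 9 to 12 others with DHT. With enzalutamide it gave 76 to 133, 0 to 1 and 0 to 1, for the combination against enzalutamide 219 to 245, 1 and 1 to 3, for the combination against vehicle 32 to 66, 0 to 1 and 0 to 1, and for the 2 changes 547 to 706, 4 and 3 to 7. With the replicate block the counts over all genes were 2582, 193, 362, 116 and 796 in the order above. The block left 0 of the 6 with enzalutamide and 0 others for the combination against vehicle. Outside the DHT comparison, deviations of equal numbers correlated at -0.0771 to 0.217, not all over 0.1, so those numbers were not taken as pairs. Over all comparisons, DHT included, the best match of an array carried its own number in 10 of 12 cases.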
